A study of Petunia x hybrida with 8 samples.

Results

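The petunia protein ODO1 (ODORANT1) belongs to the R2R3-MYB transcription factors, and the sites described here are the 982 strong, narrow places on the genome where chromatin was recovered with both ODO1 constructs of the series. They are peaks of the pODO1 list with a fold enrichment of at least 6 and a width under 500 bases. Each shares at least 1 base with a 35S peak that also meets both limits and lies on a scaffold carrying at least 1 gene ID of the count table. They make up 982 of 98009 pODO1 peaks, and in the 35S list they correspond to 981 of 103755 peaks, because 1 35S peak meets 2 of the sites. The sites were chosen by fold enrichment, width and overlap, so those values are given as a description and were not tested.

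All material came from the corolla (all petals of a flower) of Petunia x hybrida. The pODO1 ChIP group and the 35S ChIP group hold 1 library each, made with an antibody against GFP on crosslinked chromatin, so no peak has a replicate check. The odo1i group and the wild type group hold 3 RNA libraries each (replicates 1, 2 and 4). The labels do not spell out the constructs: pODO1 is read as the promoter of the ODO1 gene itself, 35S as the strong plant virus promoter of that name, and odo1i as plants with ODO1 silenced. A 35S promoter is active in many cell types, so a protein made from it can be present where the native one is not. The age of the flowers, the plants behind each library and whether the transgenic plants kept their own ODO1 are points on which the sources used here are silent.

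Petals of petunia release volatile benzenoids and phenylpropanoids in the evening, which attract night-flying moths. ODO1 is known as an activator of genes in the shikimate pathway, which supplies the aromatic amino acid phenylalanine from which these volatiles are made, and it is itself controlled by other MYB proteins of the petal, EOBI and EOBII. R2R3-MYB proteins contact DNA through a pair of MYB repeats at short sequence elements, and a factor bound at such an element is expected to give a narrow peak in ChIP. The files do not pair gene IDs with names, so the levels of ODO1, of its known targets and of petal markers were not analysed here, and neither the odo1i label nor the tissue was checked against them. Sequences and the position of genes along the scaffolds were not used here, so it is not known whether a site lies in a promoter, an exon or an intron.

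The strongest site of all lay at positions 970279 to 970621 of scaffold Peaxi162Scf00384, counted from 1. Its fold enrichment, the authors' ratio of the signal at the summit to the local background, was 23.97 in the pODO1 list and 14.5 in the 35S list. The summits, the bases of highest signal, stood 7 bases apart. The next in mean fold was at 174097 to 174225 of Peaxi162Scf00767, where pODO1 gave 20.1-fold, 35S gave 15.5-fold and 3 bases separated the summits. At 2800473 to 2800628 of Peaxi162Scf00016 the order of the lists was the other way, with 16.3-fold for pODO1 and 17.8-fold for 35S. At 342000 to 342153 of Peaxi162Scf00163 both summits fell on the same base, with 17.7-fold for pODO1 and 14.7-fold for 35S. Of the 982 sites, 16 reached 10-fold in both lists, these 4 among them.

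The other 6 of the 10 strongest had mean folds of 12.5 to 14.9. The site at 352859 to 352998 of Peaxi162Scf01111 had 20.2-fold in the pODO1 list and 9.71-fold in the 35S list. The site at 500167 to 500301 of Peaxi162Scf00115 was almost even, with 13.5-fold for pODO1 and 14.3-fold for 35S. The remaining 4 lay at 55742 to 55879 of Peaxi162Scf01298, 1337071 to 1337235 of Peaxi162Scf00185, 946397 to 946541 of Peaxi162Scf00002 and 244374 to 244564 of Peaxi162Scf01242. Their folds were 14.3 to 16.3 in the pODO1 list and 10.1 to 11.5 in the 35S list, so each was higher with pODO1.

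Over all 982 sites the median pODO1 fold was 7.56, with quartiles of 6.75 and 8.72, and the median 35S fold was 6.69, with quartiles of 6.31 and 7.48. Most sites therefore lay close above the limit of 6 in the 35S list, where 612 of their peaks were of 6 to 7-fold. In the pODO1 list 354 sites were of 6 to 7-fold. In 259 sites both folds were under 7, in 90 both were at least 8, and at least 10-fold was reached by 90 sites in the pODO1 list and 31 in the 35S list. The lowest pODO1 folds inside the limit were 6.00073 on Peaxi162Scf00190, 6.00667 on Peaxi162Scf00015 and 6.02723 on Peaxi162Scf00986. Just outside it stood 5.98894 on Peaxi162Scf00551, followed by 5.97741 on both Peaxi162Scf00009 and Peaxi162Scf00057. All 3 of these met a 35S peak of 6.44-fold or more, so they missed the limit in the pODO1 list alone.

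**Figure D1:**
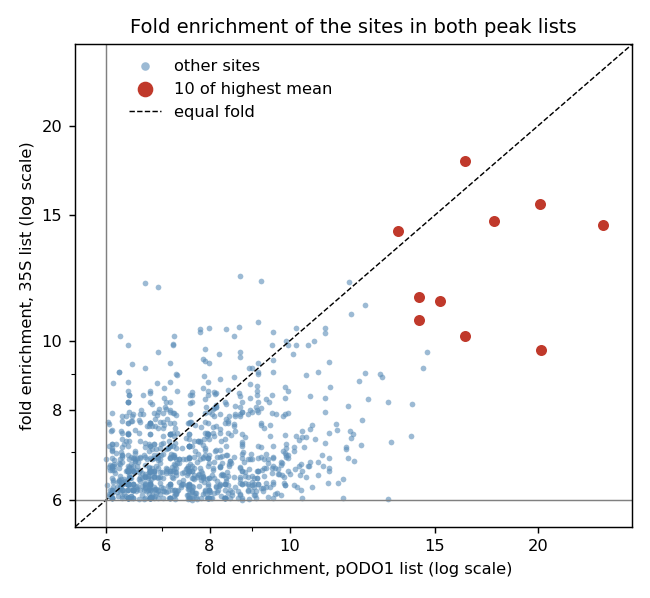
Fold enrichment of each of the 982 sites in the pODO1 list (horizontal, log scale) and the 35S list (vertical, log scale), with the limit of 6 as grey lines and equal folds as a dashed line. The 10 sites of highest mean fold (red) reach 23.97 in the pODO1 list and 17.8 in the 35S list, and most others lie under 10 in both.

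The deposited folds and p-values also held the number of fragments behind each peak. With k fragments at the summit and a background of b, a fold of (k + 1)/(b + 1) and a Poisson tail above k gave a whole k for 98009 of 98009 pODO1 peaks and 103755 of 103755 35S peaks, with −log10 p met within 0.0005. At 4 pODO1 peaks and 1 35S peak a second k also met it. At the 982 sites the pileup, k, had a median of 22 fragments in the pODO1 library (15 to 110) and 30 in the 35S library (21 to 128). The background had a median of 2.03 fragments in the pODO1 list and 3.18 in the 35S list. Such numbers of fragments limit how precisely the fold of a site is known.

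Counting error is wide at this depth, as the strongest sites show. The site on Peaxi162Scf00384 had 96 fragments in the pODO1 library (95% exact Poisson interval 77.8 to 117.2) and 91 in the 35S library (73.3 to 111.7). The site on Peaxi162Scf00016 had 40 (28.6 to 54.5) in the pODO1 library and 64 (49.3 to 81.7) in the 35S library. At the lower end, the smallest pileup that can reach 6-fold was 15 fragments in the pODO1 list and 21 in the 35S list, so the same fold limit asked for more fragments of the 35S library. These intervals cover counting error only, and the authors' handling of duplicate fragments is not stated in the labels.

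Each list had a lowest background, 1.51 fragments for pODO1 (11.7% of its peaks) and 2.65 fragments for 35S (17.4% of its peaks), which stand in a ratio of 0.571. At the 982 sites the ratio of the pODO1 to the 35S background had a median of 0.571 as well, and at 290 sites (29.5%) it met that ratio within 0.1%, against 14.2% of all 44497 overlapping pairs. A pair with both backgrounds at their lowest meets that ratio by construction, and 170 of the 290 sites are such pairs. Across the 982 sites, Spearman's rho of the 2 backgrounds was 0.894, given as a description since the sites share both libraries. The 2 backgrounds thus moved together, and a stretch of low background raises the fold in both lists. The labels do not say whether both lists were called against the same control library, which would make the backgrounds, and part of the overlap, dependent on each other. The part this plays in the overlap was not tested. At 170 sites (17.3%) both backgrounds were at their lowest, and so they were in 17.9% of narrow pairs with at least 6-fold in 35S and less in pODO1. The share was 9.77% of pairs with at least 6-fold in pODO1 and less in 35S, and 6.84% of the 32249 narrow pairs under 6-fold in both lists.

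Divided by 0.571, the ratio of pODO1 to 35S pileup had a median of 1.296 (quartiles 1.14 and 1.48), and it was above 1 at 905 of the 982 sites (92.2%). The narrow pairs under 6-fold in both lists had a median of 1.33 and were above 1 in 90.0%, so the surplus of the pODO1 library was about as large where enrichment was weaker. Counted by the deposited folds, the pODO1 value was the higher at 699 sites (71.2%). The ratio of folds had a median of 1.08 (quartiles 0.983 and 1.26) and lay within 1.5-fold at 914 sites. Its range is narrowed by the rule, which asks for at least 6-fold in both lists. With 1 library per construct none of these differences could be tested.

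**Figure D2:**
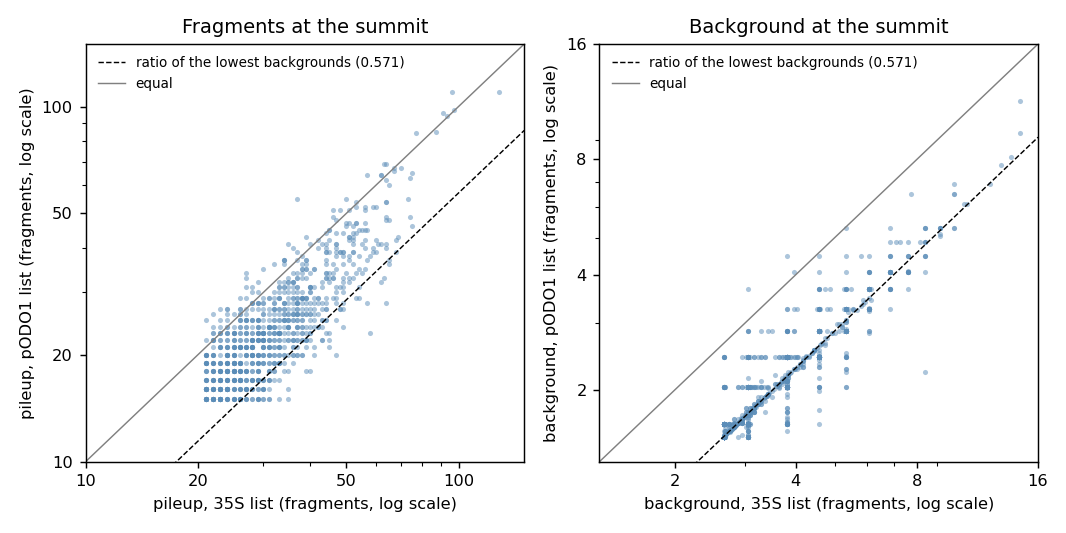
Fragments at the summit (left) and background (right) of the 982 sites, with the pODO1 list on the vertical and the 35S list on the horizontal axis, both on log scales. The dashed line is the ratio of the lowest backgrounds (0.571) and the grey line marks equal values. Backgrounds scatter around the dashed line, on which 290 sites lie, while pileups lie above it at 905 sites.

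Only 2 sites differed by more than 2-fold between the lists. The limit of 6 in both lists leaves little room for larger ratios, so this count is no measure of agreement between the constructs. Narrow pairs with at least 6-fold in 1 list alone (4104 in pODO1 and 795 in 35S) are left out of the sites by the rule. The larger ratio, 2.19, was at 223798 to 223939 of Peaxi162Scf00794, with 55 fragments and 13.2-fold in the pODO1 list against 37 fragments and 6.01-fold in the 35S list. The site on Peaxi162Scf01111 followed with a ratio of 2.08, and 1165911 to 1166187 of Peaxi162Scf00192 with 1.92. At the first 2 of these the pODO1 and 35S pileups had overlapping Poisson intervals, and so had the pileups of 972 of the 982 sites before any scaling for depth. Because the 2 lists differ in scale, overlap of these unscaled intervals cannot say whether the folds of a site differ. In the other direction no site reached 2-fold.

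The site most in favour of 35S lay at 620248 to 620351 of Peaxi162Scf00223, where 22 fragments gave 6.68-fold in the pODO1 list and 43 fragments gave 12.1-fold in the 35S list. The next were at 2383132 to 2383251 of Peaxi162Scf00003 (6.92-fold with pODO1 and 11.9-fold with 35S) and at 1005990 to 1006254 of Peaxi162Scf00172 (6.24-fold with pODO1 and 10.1-fold with 35S). All 3 were weak in the pODO1 list and among the stronger of the 35S list. Across the 982 sites, Spearman's rho between the lists was 0.241 for the folds, whose range the limit of 6 cut off in both lists, and 0.778 for the pileups. Both are descriptions, since the sites share the libraries.

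The rule did not use the summits, though the overlap and width it asked for limit how far apart they can lie. Within that limit the summits coincided closely. The median distance between the pODO1 and the 35S summit of a site was 11 bases (quartiles 5 and 21), 23 sites had both on the same base, and 729 (74.2%) had them within 20 bases. Within 50 bases lay 923 sites (94.0%, 95% Wilson interval 92.3 to 95.3). Narrow pairs with at least 6-fold in the pODO1 list and less in the 35S list had summits within 50 bases in 78.2% (76.9 to 79.4) of 4104 pairs, and those with at least 6-fold in 35S and less in pODO1 in 80.1% (77.2 to 82.8) of 795. Pairs under 6-fold in both lists reached 64.5% (64.0 to 65.0) of 32249. Neither side was favoured, since the pODO1 summit had the higher position at 477 sites and the 35S summit at 482.

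Narrow peaks leave less room for summits to differ, so the classes were also set side by side at equal width. Where the wider peak of the pair was under 150 bases, 99.7% of 396 sites had summits within 50 bases, against 94.6% of 1287 pairs strong in pODO1 alone, 96.8% of 248 pairs strong in 35S alone and 81.3% of 10221 pairs under 6-fold in both lists. Where it was 300 to 500 bases wide, 83.2% of 179 sites did, against 56.3% of 798 pairs strong in pODO1 alone, 57.7% of 149 pairs strong in 35S alone and 44.0% of 4449 pairs under 6-fold in both. Summits over 100 bases apart were found at 22 sites, and 16 of these had a peak of at least 300 bases. A summit is placed more exactly with more fragments, and the sites also have more fragments than the weaker pairs (medians of 22 against 14 in the pODO1 list and 30 against 18 in the 35S list). The part of fragment number in the distances was not tested.

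**Figure D3:**
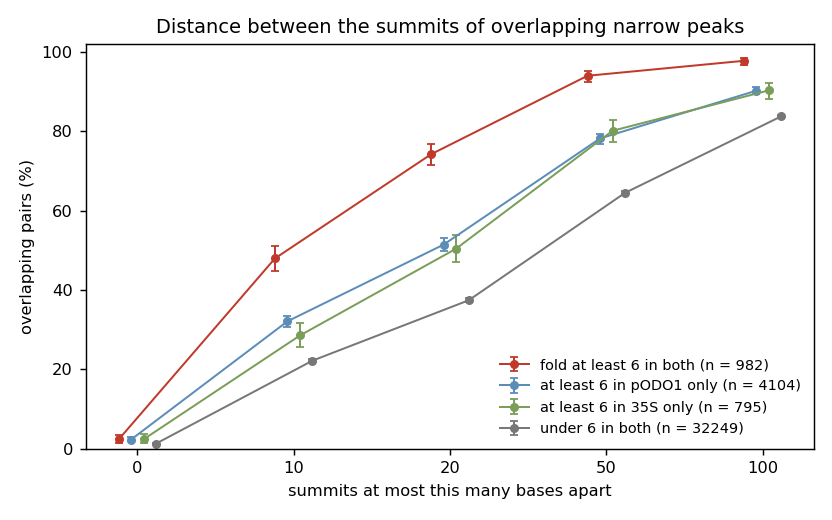
Share of overlapping narrow pairs (vertical, %) whose summits lie at most 0, 10, 20, 50 or 100 bases apart (horizontal), for the 982 sites and 3 classes of pairs with lower fold in 1 or both lists; bars are 95% Wilson intervals, which cover counting error only. The sites reach 74.2% at 20 bases and 94.0% at 50 bases, and pairs under 6-fold in both lists reach 37.4% and 64.5%.

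The sites were short, as were other narrow peaks. Their median width was 144 bases in the pODO1 list and 150.5 bases in the 35S list, 596 sites were under 200 bases wide in both, and 179 had a peak of at least 300 bases. All other narrow pODO1 peaks on scaffolds with a gene ID had a median width of 133 bases. Strong narrow pODO1 peaks had 127 bases without a 35S partner and 164 bases with a weaker one. The summit lay near the middle, at a median of 49.3% of the width in the pODO1 list and 48.8% in the 35S list. The shorter peak lay wholly inside the longer one at 515 sites (52.4%), and only 2 sites shared less than 50% of the shorter peak. It lay wholly inside in 51.4% of narrow pairs strong in pODO1 alone and 51.6% of those strong in 35S alone. In pairs under 6-fold in both lists the share was 41.1%. At most sites the overlap was thus far more than the single shared base that the rule asked for.

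A fold of at least 6 with a width under 500 bases was reached by 7064 of the 88962 pODO1 peaks on scaffolds with a gene ID (7.94%) and by 2435 of 94110 35S peaks (2.59%). Of the 7064 pODO1 peaks, 982 (13.9%) are the sites, 4108 (58.2%) met only a weaker 35S peak, 34 met a strong 35S peak of 500 bases or more and 1940 (27.5%) met none. Of the 2435 35S peaks, 981 (40.3%) belong to the sites, 792 met only a weaker pODO1 peak, 11 a strong wide one and 651 (26.7%) none. The pODO1 peaks without a 35S partner reached at most 11.2-fold, with 5 of 1940 at 10-fold or more, against 90 of the 982 sites.

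The share of narrow peaks that had a strong partner grew with their fold. Among pODO1 peaks of 6 to 7-fold 354 of 4530 were sites (7.81%), among those of 7 to 8-fold 272 of 1607 (16.9%), among those of 8 to 10-fold 266 of 800 (33.3%), and of those at 10-fold or more 90 of 127 (70.9%, 95% Wilson interval 62.4 to 78.1). In the 35S list the shares in the same steps were 35.1%, 47.2%, 64.1% and 73.8%. At 10-fold or more nearly every narrow peak met some peak of the other list, 122 of 127 for pODO1 and 38 of 42 for 35S. The fold is a value the rule used, so these shares describe how the sites were drawn from each list.

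**Figure D4:**
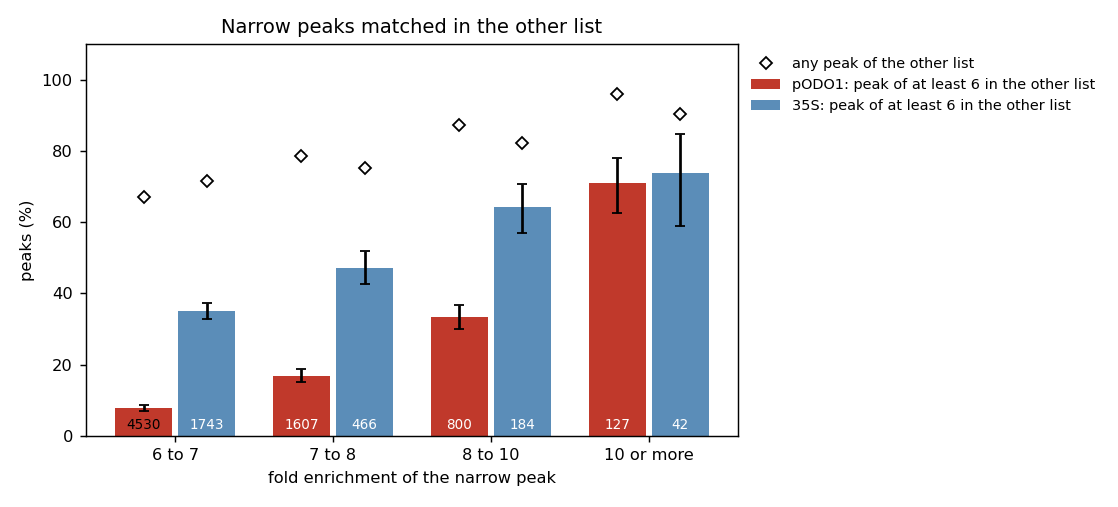
Narrow peaks of each list on scaffolds with a gene ID, by fold enrichment (horizontal), and the share (vertical, %) that met a narrow peak of at least 6-fold in the other list (bars with 95% Wilson intervals, number of peaks at the foot) or any peak of it (diamonds). The bars reach 70.9% for pODO1 and 73.8% for 35S at 10-fold or more.

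The sites were spread over 585 scaffolds, of the 1961 that carry a gene ID. Of these 585, 357 held 1 site, 128 held 2, 58 held 3 and 42 held 4 or more. Peaxi162Scf00000 held most, with 9 sites among 764 pODO1 peaks, followed by Peaxi162Scf00006 with 8 among 422 and Peaxi162Scf00002 with 7 among 299. These are long scaffolds, whose last peaks end at positions 8559951, 5194712 and 5560496, or 1 site per 951 kb, 649 kb and 794 kb. Of scaffolds whose last peak lies beyond 1000 kb, 291 of 414 (70.3%) held a site, against 570 of 1297 (43.9%) beyond 100 kb.

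Neighbouring sites of a scaffold were a median of 302820 bases apart (quartiles 104637 and 663970), and only 5 of 397 neighbouring pairs were within 1 kb. The closest stood 300 bases apart on Peaxi162Scf00006, with pODO1 folds of 6.53 and 6.47 and 35S folds of 6.87 at both. On Peaxi162Scf00069 a pair 377 bases apart held a site of 8.58-fold with pODO1 and 7.91-fold with 35S beside one of 6.16-fold with pODO1 and 7.17-fold with 35S. Other pODO1 peaks, of any fold and width, stood near more often: 661 sites (67.3%) had no other pODO1 summit within 1 kb, against 1537 of 1940 (79.2%) of the strong narrow pODO1 peaks without a 35S partner and 63468 of 87582 (72.5%) of all other narrow pODO1 peaks. Strong narrow pODO1 peaks with a weaker 35S partner were close to the sites, with none in 67.9% of 4068. Within 10 kb only 146 sites (14.9%) had no other pODO1 summit, and the median was 2 others. With 1 library these differences were not tested.

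The RNA libraries were used to ask whether genes that share a scaffold with a site, at any distance from it, differ in odo1i. These libraries held 18612881 to 20591367 counts each, and 17667 of 35812 gene IDs passed a filter on low counts. In odo1i corolla against wild type, edgeR's quasi-likelihood test, with p adjusted by Benjamini-Hochberg and a threshold of 0.05, called 61 of the 10321 tested genes on the 585 scaffolds (0.591%). Over all tested genes, which include these 10321, it called 0.628%. On scaffolds without a site it called 50 of 7346 tested genes (0.681%), so the share on scaffolds with a site was near both. Of the 61 genes, 35 were higher in odo1i (0.339%, against 0.374% of all tested genes) and 26 were lower (0.252%, against 0.255%). On scaffolds without a site 0.422% were higher and 0.259% lower. In such bulk samples fewer cells of a type and less RNA per cell cannot be told apart, and nothing in the labels says that the replicates are separate plants, so a p-value here reflects library-to-library spread alone, which may be technical.

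Size and spread of the differences were also near those of all genes. The median log2 fold change of odo1i over wild type was -0.02 for the 10321 genes and -0.03 for all 17667, which include them. It was -0.03 as well for the 7346 genes on scaffolds without a site. The CPM values, counts scaled to library size by TMM, did not overlap between the groups at 23.1% of the genes on these scaffolds and at 22.5% of all tested genes. On scaffolds without a site the share was 21.6%. DESeq2 called many more genes, 653 of the 10321 (6.33%), which again stood beside 6.34% of all tested genes. The number called depended heavily on single libraries. Leaving out odo1i replicate 1, 2 or 4 in turn left 3, 0 and 4 called genes on these scaffolds (0.0281%, 0% and 0.0375%). Over all genes tested in those fits the shares were 0.0219%, 0% and 0.0548%. Leaving out wild type replicate 1, 2 or 4 gave 2, 13 and 246 (0.0189%, 0.121% and 2.34%). The shares over all genes tested were then 0.0165%, 0.114% and 2.42%. The 0 calls of edgeR stood beside 969 of 10721 genes at an unadjusted p under 0.05, and beside 1673 of 18365 over all genes. The 246 were out of 10506 tested genes.

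More sites on a scaffold did not go with more called genes in a steady way. Called were 27 of 4860 tested genes on scaffolds with 1 site (0.556%), 14 of 2642 with 2 sites (0.530%), 15 of 1564 with 3 sites (0.959%) and 5 of 1255 with 4 or more (0.398%). On the scaffolds of sites with at least 10-fold in the pODO1 list 12 of 1690 were called (0.710%), 6 higher and 6 lower. Over all tested genes 111 of 17667 were called (0.628%). The shares on either side of it rest on 5 to 27 called genes each, and their differences were not tested. Seen from the sites, 104 of 982 (10.6%) shared a scaffold with a called gene, against 10.7% of the other 6082 strong narrow pODO1 peaks and 10.2% of all 88962 pODO1 peaks on scaffolds with a gene ID. A scaffold with a site carried a median of 11 tested genes and up to 187, so sharing a scaffold does not place a gene next to a site.

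The 10 strongest sites lay on scaffolds with 348 tested genes, of which 1 was called (0.287%, against 0.628% of all tested genes). It is a gene lower in odo1i on Peaxi162Scf00016 (edgeR adjusted p = 0.0491). That scaffold carries 178 tested genes and 4 sites. On Peaxi162Scf00384, with the strongest site of all and 4 further sites, none of 14 tested genes was called and the lowest edgeR adjusted p was 0.105. On Peaxi162Scf00767, with 20 tested genes, it was 0.114. With 3 libraries per group, 9 of the 10 strongest sites thus had no called gene on their scaffold. That is near the share of all pODO1 peaks on scaffolds with a gene ID, of which 10.2% shared a scaffold with a called gene.

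On 35 of the 585 scaffolds only 1 gene passed the filter, so a site there can be set beside a single tested gene. These 35 scaffolds carry 142 gene IDs, and the distance from site to tested gene is not known. Of these 35 genes 1 was called (2.86%, against 0.628% of all tested genes), a share that rests on 1 gene. The strongest such site is the one on Peaxi162Scf01298, which carries no other gene ID. Its gene had 304.2, 199.5 and 175.8 CPM in odo1i replicates 1, 2 and 4, against 237.1, 197.7 and 121.2 CPM in wild type replicates 1, 2 and 4. The groups overlapped, and the log2 difference of odo1i minus wild type, 0.29, was no larger than its SE of 0.30 (edgeR adjusted p = 0.690).

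The called gene of this kind is the only tested one on Peaxi162Scf00250, among 8 gene IDs. It had 58.7, 36.02 and 52.3 CPM in odo1i replicates 1, 2 and 4, against 123.2, 175.6 and 211.9 CPM in wild type replicates 1, 2 and 4. Every odo1i library was below every wild type library. The log2 fold change came to -1.80 ± 0.26 (SE), just past the threshold (edgeR adjusted p = 0.0473). The call held without wild type replicate 4 and was lost when any other library was left out, with edgeR adjusted p between 0.0771 and 0.240, and with the replicate block (edgeR adjusted p = 0.0518). That scaffold holds 2 sites, at 948388 to 948537 with 8.72-fold for pODO1 and 9.49-fold for 35S, and at 522542 to 522958 with 7.57-fold for pODO1 and 7.13-fold for 35S.

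In the other 3 of the 5 strongest sites with a lone tested gene, that gene was not called. The gene on Peaxi162Scf00645 averaged 0.923 ± 0.415 CPM in odo1i and 0.372 ± 0.241 CPM in wild type (SD, n = 3 each), too low to say more. On Peaxi162Scf00794, whose site is the one most in favour of pODO1, the gene averaged 17.1 ± 3.19 CPM in odo1i and 14.9 ± 4.23 CPM in wild type (SD, n = 3 each). On Peaxi162Scf01072 it averaged 121.4 ± 3.71 CPM in odo1i and 101.9 ± 19.2 CPM in wild type (SD, n = 3 each). Their edgeR adjusted p-values were 0.474, 0.753 and 0.503.

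The largest rise among the 61 called genes was that of Peaxi162Scf00049g02410. It had 195.1, 355.4 and 394.2 CPM in odo1i replicates 1, 2 and 4, against 15.8, 14.9 and 20.3 CPM in wild type replicates 1, 2 and 4. All odo1i libraries were far above all wild type libraries, by 4.21 ± 0.31 (SE) on the log2 scale (edgeR adjusted p = 0.00747). Its scaffold holds 1 site among 20 tested genes, at 592145 to 592286, with 8.46-fold for pODO1 and 6.03-fold for 35S. The call was lost without odo1i replicate 2 or wild type replicate 1.

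Peaxi162Scf00186g00093 rose next most. It had 61.8, 43.7 and 71.1 CPM in odo1i replicates 1, 2 and 4, against 4.04, 2.46 and 4.17 CPM in wild type replicates 1, 2 and 4, again without overlap. It differed by 4.05 ± 0.30 (SE) on the log2 scale (edgeR adjusted p = 0.00747), and the call was lost without odo1i replicate 1 or 2 or wild type replicate 1. Its scaffold holds 5 sites among 22 tested genes. The strongest of these lay at 1422979 to 1423347, with 9.89-fold for pODO1 and 6.88-fold for 35S, and the weakest at 659129 to 659381, with 6.26-fold for pODO1 and 6.31-fold for 35S.

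Among the genes that fell, Peaxi162Scf00968g00018 had 0 counts in all 3 odo1i libraries, against 3.70, 12.4 and 11.04 CPM in wild type replicates 1, 2 and 4. Against a floor of 3 counts over the odo1i group, or 0.0506 CPM, its level in odo1i was lower by at least 179-fold (edgeR adjusted p = 0.0456). This bound was 117-fold without odo1i replicate 4 and 119-fold without odo1i replicate 2. The call was lost without any 1 of odo1i replicates 1, 2 and 4 or wild type replicates 1 and 2, and with limma-voom. The 1 site of its scaffold, among 7 tested genes, lay at 391690 to 391983, with 7.87-fold for pODO1 and 8.94-fold for 35S.

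Peaxi162Scf00132g00239 had a single count in the odo1i group, in replicate 4 (0.0488 CPM), against 4.23, 5.19 and 4.49 CPM in wild type replicates 1, 2 and 4. Wild type was 274-fold higher by summed counts, with a 95% exact counting interval of 48.8 to 10866, and the edgeR adjusted p was 0.0209. With odo1i replicate 4 left out no count remained in odo1i, and the floor of 3 counts makes it at least 60.0-fold lower there. Without odo1i replicate 2 the ratio was 182. The call held without wild type replicate 4 and was lost when any other library was left out. Its scaffold holds 2 sites among 37 tested genes, at 319257 to 319450 with 6.77-fold for pODO1 and 6.58-fold for 35S, and at 913471 to 913590 with 6.37-fold for pODO1 and 6.03-fold for 35S.

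**Figure D5:**
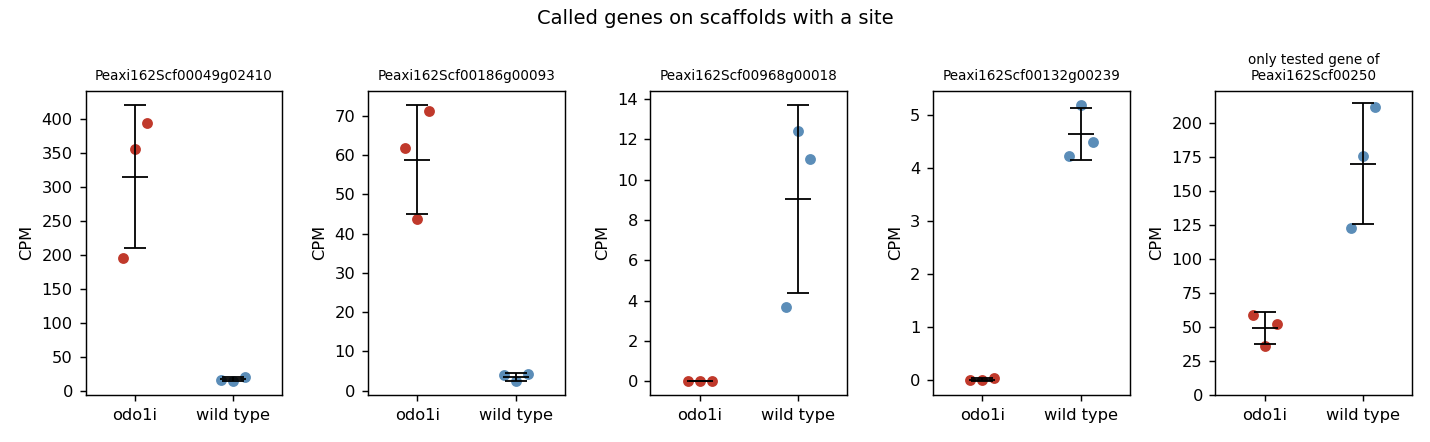
CPM (vertical) of 5 called genes on scaffolds with a site, in odo1i (red) and wild type (blue) corolla; points are the 3 libraries of a group and bars the mean ± SD. Peaxi162Scf00049g02410 and Peaxi162Scf00186g00093 are higher in every odo1i library, and the other 3 are lower in every odo1i library.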

How the data were processed

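Per the labels' protocols, RNA was turned into oligo-dT libraries, and the authors deposited raw whole-number counts for each gene ID. Tools listed in the submitters' processing notes are Bowtie2, MACS2, TopHat2, HTSeq, cutadapt and DESeq2, without versions, settings or a control, and a genome build is not given in the sources used here. Use of strand in counting is not given either, so overlapping, antisense and near-identical genes cannot be told apart. The authors deposited 1 peak list per construct in the layout of MACS2, with an integer score, a fold ratio over background, −log10 p, −log10 q and the summit offset; the score was not used. Whether either list pools libraries is not stated.

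From the lists, sites were chosen by the stated limits, and pileup and background were solved from fold and −log10 p, after a test on simulated peaks. From the counts, genes were filtered with filterByExpr, scaled by TMM and tested with edgeR 4.0.16 in R 4.3.3 at a Benjamini-Hochberg adjusted p under 0.05 over 17667 genes, after a test on simulated counts. The standard error is the log2 fold change divided by the square root of F. Alternatives used DESeq2 1.42.0 and limma 3.58.1, and peaks were handled with Python 3.11.15. No 2 libraries of a group looked like 1 library deposited 2 times (chi-square over degrees of freedom 26.2 to 151.2).

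Members, gene lists and tests were chosen with earlier results of these data known. The rule for items named in the text gives the 10 sites of highest mean fold, the 3 largest and the 3 smallest ratios between lists, the 3 scaffolds with most sites, the values next to the limit, the 5 strongest sites with a lone tested gene, and the 2 largest rises and 2 largest falls among called genes without overlap between groups and with a mean of 1 CPM or more. Close pairs of sites and the lone called genes named beside these were chosen after their values were seen. Scent genes listed by name were not run, as IDs carry no names here.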

Additional observations from a re-analysis of the deposited data

How the results depend on the processing

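Against 982 sites, a minimum fold of 5 in both lists left 3500, a minimum of 8 left 90, and folds without the added 1, an alternative chosen after seeing the data, left 5160; 6 other settings left 665 to 1452. Summits within 50 bases, 94.0% of sites, were found for 88.9% at a minimum fold of 5, 100% at 8, 96.4% at widths under 300 bases, 96.1% when sites were paired by summits within 100 bases (which drops distant summits by construction, so it is no check of this share), 95.9% at a −log10 q of at least 10, 95.5% on all scaffolds and 83.5% for folds without the added 1. Against 61 called genes on scaffolds with a site (0.591% of tested), DESeq2 called 653 (6.33%, against 6.34% of all tested genes), limma-voom with library quality weights 658 (6.38%, against 6.35%) and edgeR without a low-count filter 107 (0.772%, against 0.757%). Scaffolds of sites of at least 8-fold held 10 (0.529%), those of at least 5-fold 94 (0.610%) and those with at most 10 gene IDs 2 (0.597%), by construction of fewer or more genes. RLE size factors, limma-voom and a CPM filter called 62 to 79 (0.601% to 0.827%, against 0.634% to 0.869% of all tested genes). Leaving out 1 library gave 0 to 246 (0% to 2.34%, against 0% to 2.42%). The cause of the shifts in calls was not tested. A replicate block gave 116 calls (1.12%, against 1.098% of all tested genes). Deviations of same-numbered libraries correlated at 0.189, 0.0977 and 0.115, and 1 of these is under the 0.1 set for pairing, so pairing was not used. The 4 genes named by ID were chosen for groups that do not overlap, so their unchanged direction in 13 alternatives is no check. Their adjusted p went up to 0.191 (edgeR without odo1i replicate 2). Pileups of 15 fragments and more, from 1 library per construct, limit the precision of each site.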

Other observations

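The same limits on fold, width and overlap were met by 470 further pODO1 peaks on 453 scaffolds that carry no gene ID of the count table, which brings the total to 1452. Their median fold was 7.88 in the pODO1 list and 7.03 in the 35S list, their highest pODO1 fold was 20.3, and their summits lay a median of 8 bases apart.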
